A study of Mus musculus with 6 samples.

Results

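The 41 genes described here are interferon-induced antiviral genes: genes that cells switch on in response to interferon, with the regulators that act on them. They were taken by name, from a fixed list of symbols, and that list was chosen with earlier results of these data known. All 41 were found among the 27263 genes listed in the files, and all 41 were among the 11984 genes that passed a minimum mean level and were tested.

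RNA sequencing was done on bone marrow stromal cells of C57BL/6 mice, the adherent marrow cells that can give rise to bone and fat cells. Per the labels, marrow of the long bones of the hind limb was sorted for Sca-1+ CD29+ CD45− CD11b− cells, which were then grown in α-MEM with 10% fetal bovine serum. One group received rGCA at 50 nM and the other received PBS, the buffer control, each for 3 days, with 3 libraries per group. GCA is not spelled out in the labels and is read here, from knowledge of the study, as grancalcin, a protein of myeloid cells that binds calcium, with rGCA as the recombinant protein. The labels give no genetic change in either group, no age and no sex. Whether the replicates are separate animals or cultures is not stated in the labels, so the p-values cover the spread between these libraries alone, and that spread may be technical.

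As background, cells sense viral nucleic acid with receptors in the cytosol and in endosomes, and these receptors trigger the release of type I interferon. Interferon binds its receptor, the kinases JAK1 and TYK2 act on STAT proteins, STAT2 among them, and these join IRF9 to form the complex ISGF3. ISGF3 binds the interferon-stimulated response element, a repeat of GAAA in gene promoters, while interferon gamma acts through a separate palindrome called GAS. The genes so induced block viral entry, transcription, translation, assembly and release, and many of them encode sensors and factors of the same pathway.

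The levels are FPKM, that is, fragments divided by exon length and by the size of the library, so that levels of different genes can be set beside each other per length. Library totals, which were inferred from the values as the divisor of the FPKM, ran from 17543509 to 18645932 fragments, a 1.06-fold range. Fold changes in log2 units are on the log2(FPKM + 1) scale. The SE, the two-sided p and its Benjamini-Hochberg adjustment over all 11984 tested genes come from limma, and a gene was called changed where the adjusted p was under 0.05. Markers of other cell types than stroma were present: Ptprc, which encodes CD45, averaged 12.6 FPKM in PBS and 13.4 in GCA, and Itgam, which encodes CD11b, averaged 39.3 and 30.5. Col1a1, a stromal collagen gene, averaged 1333 and 1149. The 18 macrophage markers summed to 18760 to 20923 FPKM in the PBS libraries and 16322 to 17691 in the GCA libraries, a sum carried by Lyz2, while 10 of the 18 rose and 1, Lyz2, fell. So RNA of both gate genes was present in the grown cultures, although the labels give CD45− and CD11b− gates. The sort preceded the culture, and these are RNA levels, so the values do not show whether the gates held. In such bulk samples, a change in the number of cells of one type and a change in RNA per cell cannot be told apart.

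The promoters of 30 of the 41 genes were matched in the RefSeq promoter table on GRCm38.p6, over the 250 bases before the gene start. The core of the interferon-stimulated response element was searched on both strands as GAAA, any 2 bases and GAAA again. It was found in 11 of 30 genes, 36.7%, against 936 of 27025 genes in the table, 3.46%. The GAS palindrome, searched as TTCNNNGAA, which reads the same on both strands, was found in 7 of 30 genes, 23.3%, against 8.13% of all genes. The 6 stretches below are shown because 3 belong to genes that rose with GCA (Oas3, Oas1a and Bst2) and 3 to genes that did not pass the test (Ifit1, Isg15 and Rsad2). Each reads 5′ to 3′ on the strand of its gene, and capitals mark this core, or its reverse complement, TTTC, any 2 bases and TTTC, where the match lies on the other strand. The Oas3 stretch is chr5:120777700-120777759 on the minus strand. The Oas1a stretch is chr5:120907526-120907564 on the minus strand. The Bst2 stretch is chr8:71537562-71537621 on the minus strand. The Ifit1 stretch is chr19:34640779-34640838 on the plus strand. The Isg15 stretch is chr4:156200850-156200909 on the minus strand. The Rsad2 stretch is chr12:26456538-26456597 on the minus strand.
Oas3: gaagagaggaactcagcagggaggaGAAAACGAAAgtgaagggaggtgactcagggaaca
Oas1a: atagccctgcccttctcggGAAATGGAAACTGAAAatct
Bst2: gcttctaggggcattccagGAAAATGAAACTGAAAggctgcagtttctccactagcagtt
Ifit1: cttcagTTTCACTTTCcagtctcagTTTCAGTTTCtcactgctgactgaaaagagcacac
Isg15: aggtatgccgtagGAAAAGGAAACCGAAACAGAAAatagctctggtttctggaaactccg
Rsad2: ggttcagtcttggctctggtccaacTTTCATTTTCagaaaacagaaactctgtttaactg
Where copies overlap, as in Isg15, 1 run of capitals holds several of them: 3 in Isg15, 2 in Oas1a and 2 in Bst2. Ifit1 held 2 separate copies on the strand opposite to the gene. The element was in 4 of the 11 matched genes that rose with GCA (Oas1a, Oas3, Bst2 and Trim30a) and in 7 of the 19 that did not pass. The median log2 fold change was 0.27 in genes with the element and 0.21 in genes without it. GAS was in 4 of the 11 matched genes that rose and in 3 of the 19 that did not pass. The median log2 fold change was 0.26 in genes with GAS and 0.24 in genes without GAS. A match describes these letters in this window and is not a binding site.

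With GCA, 15 of the 41 genes rose and none fell, and the other 26 were not called. Over all tested genes 11.5% rose and 6.43% fell. The genes that rose included the regulator Irf7, the sensors Dhx58 and Zbp1, 5 of the 6 genes of the oligoadenylate synthetase and PKR group, Ifit2, Samhd1 and Bst2. Their means were 1.20-fold (Bst2) to 2.27-fold (Ifit2) higher with GCA. The median log2 fold change of the 41 genes was 0.26, beside 0.0056 over all tested genes. The GCA mean was above the PBS mean in 41 of 41 genes, beside 51.7% of tested genes. In 8 of the 41 the fold change of means was 1.5 or more, among them Mx1 and Rsad2, which did not pass. The share of all tested genes at this fold was not counted.

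**Figure D1:**
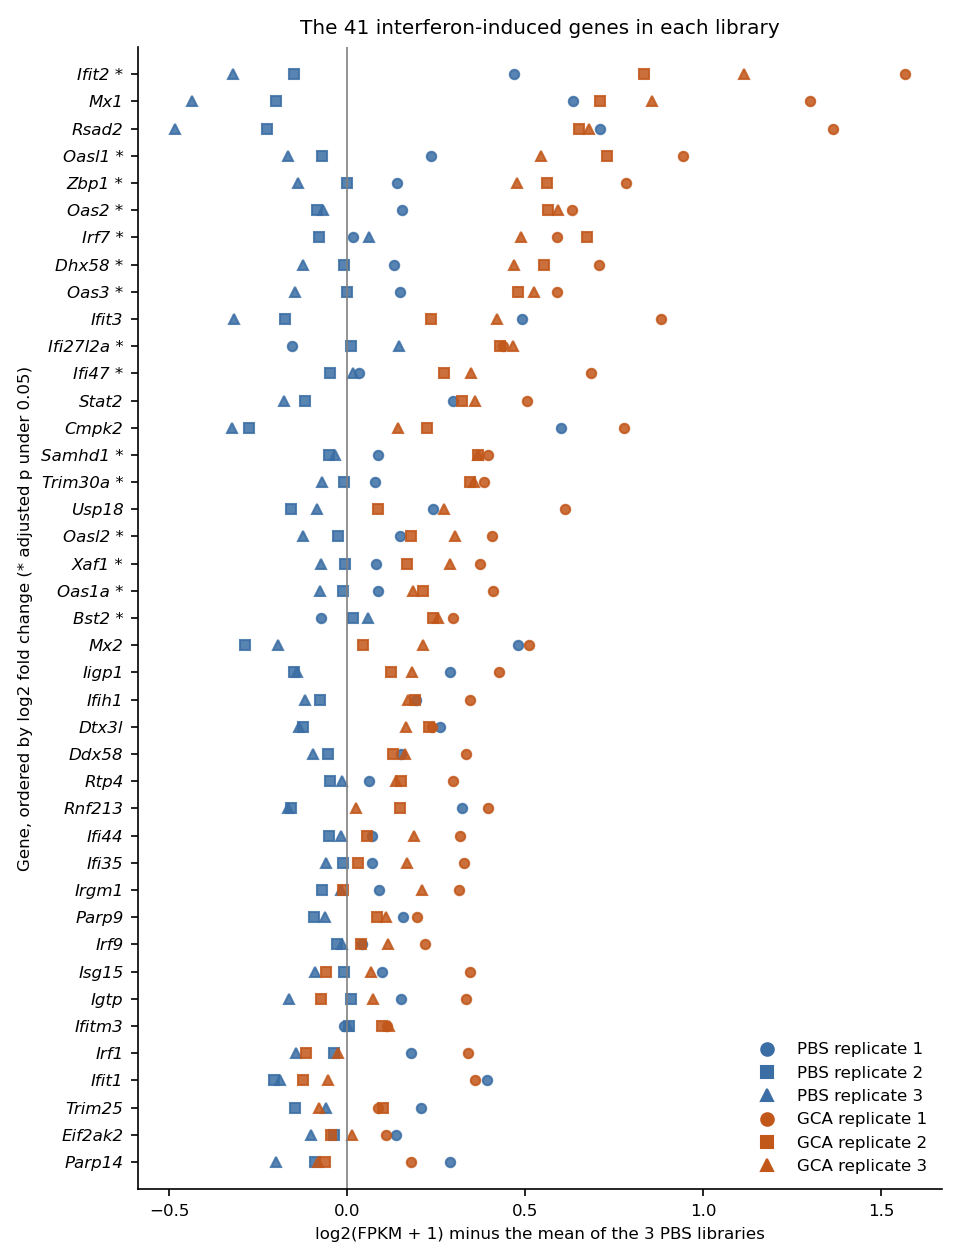
Each library's log2(FPKM + 1) minus the mean of the 3 PBS libraries (horizontal axis) for the 41 genes (vertical axis, ordered by log2 fold change, asterisk for an adjusted p under 0.05), with PBS in blue, GCA in orange and the replicate number as the symbol. The circles, replicate 1, are the highest of their group in both groups for 36 of the 41 genes.

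Of the transcription factors of the pathway, Irf7 rose and Irf1, Irf9 and Stat2 did not pass. Irf7, the factor that amplifies type I interferon transcription, was at 89.7, 84.0 and 92.7 FPKM in PBS replicates 1 to 3 and at 134, 142 and 125 FPKM in GCA replicates 1 to 3. Every GCA library was above every PBS library, and replicate 1 was the highest in neither group. The means were 88.8 ± 4.42 (SD, n = 3) in PBS and 134 ± 8.59 (SD, n = 3) in GCA, a log2 fold change of 0.58 (SE 0.0614, limma adjusted p = 0.000967). Irf7 (ENSMUSG00000025498) lies at chr7:141262706-141266481 of GRCm38 and overlaps Phrf1 on the opposite strand, which averaged 6.25 FPKM, and the assignment of such reads is unknown here.

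Stat2, the STAT that interferon type I brings into ISGF3, was at 49.4, 36.8 and 35.3 FPKM in PBS and at 57.2, 50.3 and 51.6 FPKM in GCA. The groups did not overlap, but the gap between PBS replicate 1 and the lowest GCA library was small, and the test was not passed (log2 fold change 0.39, SE 0.127, limma adjusted p = 0.0767). Irf9, the DNA-binding subunit of ISGF3, averaged 19.9 ± 0.549 FPKM (SD, n = 3) in PBS and 21.8 ± 1.45 (SD, n = 3) in GCA, with limma adjusted p = 0.176. Irf1, which responds strongly to interferon gamma, averaged 14.6 ± 1.82 FPKM (SD, n = 3) and 15.5 ± 2.85 (SD, n = 3), with limma adjusted p = 0.777, and its groups overlapped.

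Isg15, a small ubiquitin-like protein that is attached to other proteins, was among the more abundant members at 262, 243 and 229.6 FPKM in PBS and 310.7, 235 and 256 FPKM in GCA. GCA replicate 2 lay below 2 of the PBS libraries, and the log2 fold change of 0.12 (SE 0.103) gave a limma adjusted p of 0.473. Usp18, the protease that removes ISG15 and also damps the type I interferon receptor, averaged 26.5 ± 4.17 FPKM (SD, n = 3) in PBS and 33.5 ± 6.50 (SD, n = 3) in GCA, with limma adjusted p = 0.228. Neither of these genes passed.

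Among the sensors of viral nucleic acid, Dhx58 and Zbp1 rose, and Ifih1 and Ddx58 did not pass. Dhx58 encodes LGP2, a helicase that regulates the other RNA helicase sensors, and was at 22.3, 20.2 and 18.5 FPKM in PBS and at 33.8, 30.2 and 28.4 FPKM in GCA. Its lowest GCA library lay well above its highest PBS library, with means of 20.3 ± 1.89 and 30.8 ± 2.71 FPKM (SD, n = 3 each) and a log2 fold change of 0.58 (SE 0.0823, limma adjusted p = 0.0033). Zbp1 encodes a sensor of left-handed nucleic acid that can start necroptosis, and was at 29.5, 26.6 and 24.1 FPKM in PBS and at 46.6, 39.8 and 37.5 FPKM in GCA. Its groups were also apart, with means of 26.7 ± 2.68 and 41.3 ± 4.72 FPKM (SD, n = 3 each) and a log2 fold change of 0.61 (SE 0.0961, limma adjusted p = 0.00583). Ifih1, which encodes the RNA sensor MDA5, was at 16.6, 13.6 and 13.1 FPKM in PBS and at 18.5, 16.5 and 16.3 FPKM in GCA (limma adjusted p = 0.112). Ddx58, which encodes the RNA sensor RIG-I, was at 38.0, 32.8 and 31.8 FPKM in PBS and at 43.2, 37.4 and 38.3 FPKM in GCA (limma adjusted p = 0.114). In both of these genes only PBS replicate 1 reached into the range of the GCA libraries.

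The oligoadenylate synthetases make a short RNA-like messenger when they bind double-stranded RNA, and Oas1a, Oas2 and Oas3 rose, as did the related Oasl1 and Oasl2. Oas2 was at 34.6, 29.2 and 29.6 FPKM in PBS and at 48.6, 46.3 and 47.2 FPKM in GCA. The GCA libraries were close to each other and all above PBS, with means of 31.1 ± 3.03 and 47.4 ± 1.12 FPKM (SD, n = 3 each) and a log2 fold change of 0.60 (SE 0.0681, limma adjusted p = 0.00127). Oas3, its neighbour on chromosome 5 at a distance of 3244 bases, was at 26.7, 24.0 and 21.6 FPKM in PBS and at 36.6, 33.9 and 34.9 FPKM in GCA. Its log2 fold change was 0.53 (SE 0.0753, limma adjusted p = 0.00305) with no overlap of the groups. Oas1a was at 71.6, 66.8 and 63.9 FPKM in PBS and at 89.8, 78.3 and 76.7 FPKM in GCA. Its difference was smaller, a log2 fold change of 0.27 (SE 0.0714, limma adjusted p = 0.0353), and the groups were apart. Its close relative Oas1g averaged 22.9 FPKM in PBS and 27.9 in GCA, so the values of both depend on how shared reads were assigned.

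Oasl1 and Oasl2 encode relatives of the synthetases with ubiquitin-like domains, and lie 11005 bases apart on chromosome 5. Oasl1, which restrains translation of Irf7 mRNA, was at 18.9, 15.1 and 14.1 FPKM in PBS and at 31.5, 27.1 and 23.7 FPKM in GCA. All GCA libraries were above PBS, with means of 16.0 ± 2.55 and 27.4 ± 3.94 FPKM (SD, n = 3 each) and a log2 fold change of 0.74 (SE 0.134, limma adjusted p = 0.0122). Oasl2 was at 60.7, 53.6 and 50.1 FPKM in PBS and at 72.7, 62.0 and 67.5 FPKM in GCA. The groups were apart by a narrow margin between PBS replicate 1 and GCA replicate 2, and the log2 fold change was 0.30 (SE 0.0831, limma adjusted p = 0.0447). Eif2ak2, which encodes PKR, the kinase that stops translation when it binds double-stranded RNA, was at 32.8, 29.0 and 27.6 FPKM in PBS and at 32.1, 28.8 and 30.0 FPKM in GCA. Its groups overlapped fully, with a log2 fold change of 0.03 (95% interval −0.14 to 0.19, limma adjusted p = 0.842).

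The IFIT genes, whose proteins bind viral RNA, lie side by side on chromosome 19 in the order Ifit2, Ifit3 and Ifit1, and only Ifit2 passed. Ifit2 was at 48.8, 31.4 and 27.8 FPKM in PBS and at 106, 63.1 and 77.0 FPKM in GCA. Replicate 1 was far above the rest of its group on both sides, yet the lowest GCA library was above the highest PBS library. The means were 36.0 ± 11.2 and 81.9 ± 21.7 FPKM (SD, n = 3 each), a log2 fold change of 1.17 (SE 0.274, limma adjusted p = 0.039), the largest of the 41. Ifit3 was at 177, 111 and 101 FPKM in PBS and at 232, 148 and 169 FPKM in GCA. PBS replicate 1 was above 2 of the GCA libraries, and the log2 fold change of 0.51 (SE 0.268, 95% interval −0.16 to 1.18) gave a limma adjusted p of 0.251. Ifit1 was at 147, 96.9 and 97.9 FPKM in PBS and at 144, 102 and 108 FPKM in GCA. Here replicate 1 of each group stood apart from the other 4 libraries, and the groups differed by a log2 fold change of 0.06 (95% interval −0.47 to 0.59, limma adjusted p = 0.877). The near copy Ifit3b averaged 28.2 FPKM in PBS and 33.7 in GCA, and reads shared with Ifit3 may have been counted in either.

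**Figure D2:**
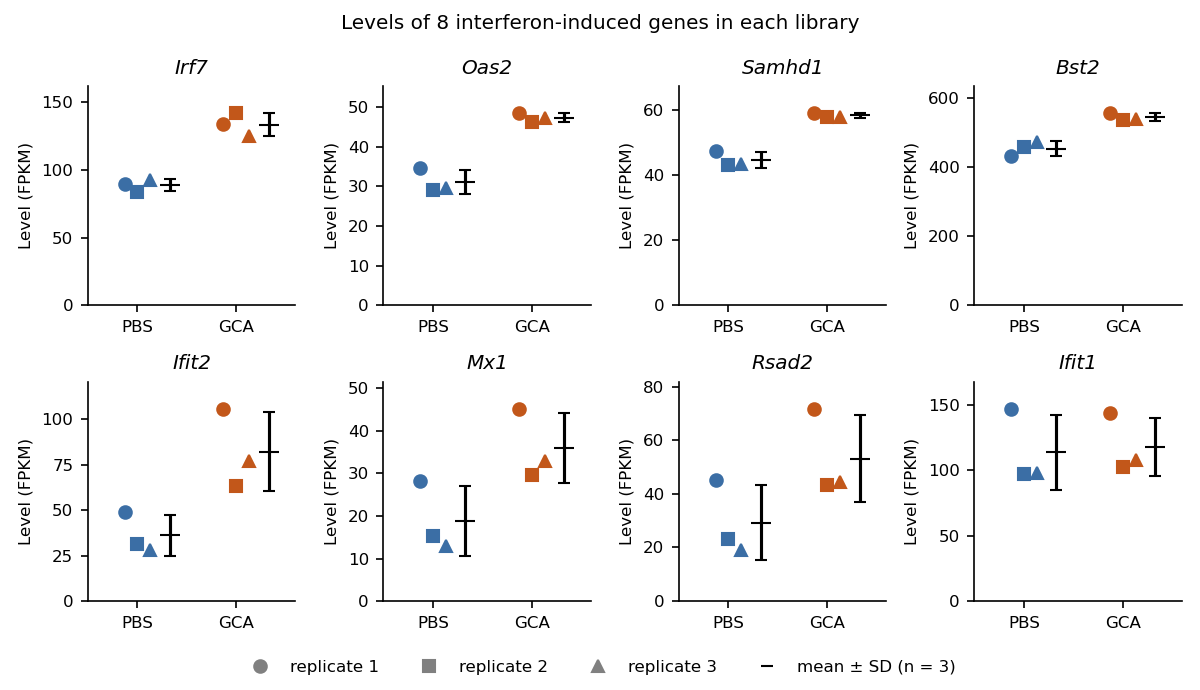
Levels in FPKM (vertical axes from 0) of 8 genes in each library, with PBS in blue, GCA in orange, the replicate number as the symbol and the mean ± SD of 3 libraries in black. In Irf7, Oas2, Samhd1 and Bst2 the libraries of a group lie close together and the groups are apart, while in Ifit2, Mx1, Rsad2 and Ifit1 replicate 1 stands well above the others of both groups. Replicate 1 is also the highest of both groups, by less, in Oas2 and Samhd1.

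Of the 7 genes that restrict viral entry, nucleotide supply, assembly and release, Samhd1 and Bst2 rose. Samhd1, which breaks down the deoxynucleotides that viruses need, was at 47.6, 43.1 and 43.6 FPKM in PBS and at 59.2, 58.0 and 58.1 FPKM in GCA. The 3 GCA libraries were nearly equal and all above PBS, with means of 44.8 ± 2.42 and 58.4 ± 0.681 FPKM (SD, n = 3 each) and a log2 fold change of 0.38 (SE 0.0502, limma adjusted p = 0.00241). Bst2, or tetherin, holds budding viruses at the cell surface, and was at 432, 459 and 473 FPKM in PBS and at 558, 537 and 542 FPKM in GCA. The groups were apart and PBS replicate 1 was the lowest library, with a log2 fold change of 0.26 (SE 0.0506, limma adjusted p = 0.0105). Ifitm3, which blocks fusion of viruses with the cell membrane, was the most abundant of the 41 at 1009, 1019 and 1017 FPKM in PBS and 1098, 1086 and 1101 FPKM in GCA. Its groups did not overlap, but the means differed only 1.08-fold, and the test was not passed (limma adjusted p = 0.12). The related gene Ifitm2 averaged 56.0 FPKM in PBS and 60.4 in GCA.

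The other 4 genes of this group varied more between libraries of a group, and none of them passed. Mx1, a dynamin-like GTPase whose allele in C57BL/6 is truncated and does not protect against influenza, was at 28.2, 15.4 and 12.9 FPKM in PBS and at 45.2, 29.8 and 33.0 FPKM in GCA. PBS replicate 1 came close to GCA replicate 2 without passing it, and the means of 18.8 ± 8.20 and 36.0 ± 8.16 FPKM (SD, n = 3 each) gave a log2 fold change of 0.96 (SE 0.315, limma adjusted p = 0.0968). Rsad2, or viperin, which makes a chain-terminating nucleotide, was at 45.3, 23.1 and 19.2 FPKM in PBS and at 71.8, 43.4 and 44.3 FPKM in GCA. PBS replicate 1 was above GCA replicates 2 and 3, and the log2 fold change of 0.90 (SE 0.367, 95% interval −0.017 to 1.82) gave a limma adjusted p of 0.159. Cmpk2, a mitochondrial nucleotide kinase gene 12751 bases from Rsad2 on chromosome 12, was at 28.1, 14.8 and 14.3 FPKM in PBS and at 31.9, 21.4 and 20.2 FPKM in GCA. Here too PBS replicate 1 was above GCA replicates 2 and 3, with limma adjusted p = 0.446. Mx2 was lower than Mx1 at 10.3, 5.62 and 6.07 FPKM in PBS and 10.5, 7.33 and 8.37 FPKM in GCA, with limma adjusted p = 0.505.

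Among the ADP-ribosyl transferases and ubiquitin ligases, Trim30a rose and the other 5 genes did not pass. Trim30a, a ubiquitin ligase that restrains inflammatory signalling, was at 61.1, 57.5 and 55.0 FPKM in PBS and at 75.8, 73.7 and 74.3 FPKM in GCA. All GCA libraries were above PBS with little spread, a log2 fold change of 0.36 (SE 0.0501, limma adjusted p = 0.00279). Its relative Trim30d averaged 21.7 FPKM in PBS and 26.6 in GCA. Trim25, the ligase that acts on RIG-I, averaged 25.9 ± 3.54 and 26.5 ± 1.86 FPKM (SD, n = 3 each, limma adjusted p = 0.831). Parp9 and Dtx3l, whose proteins form a complex and whose genes overlap on opposite strands, averaged 24.9 and 20.7 FPKM in PBS and 27.3 and 23.9 FPKM in GCA. Their limma adjusted p-values were 0.254 and 0.205, and reads of the shared end cannot be assigned to either here. Parp14, a mono-ADP-ribosyl transferase, averaged 29.8 FPKM in both groups, with a log2 fold change of 0.01 (95% interval −0.32 to 0.34, limma adjusted p = 0.968). Rnf213, a very large ubiquitin ligase, averaged 43.4 ± 9.05 and 49.2 ± 6.71 FPKM (SD, n = 3 each, limma adjusted p = 0.466).

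Of the GTPases induced chiefly by interferon gamma, which act on the vacuoles of intracellular parasites, Ifi47 rose. Ifi47 was at 30.6, 28.9 and 30.2 FPKM in PBS and at 48.7, 36.3 and 38.3 FPKM in GCA. The PBS libraries were nearly equal and GCA replicate 1 was the highest, with a log2 fold change of 0.43 (SE 0.102, limma adjusted p = 0.0251). Irgm1 averaged 47.8 ± 2.82 and 54.1 ± 6.20 FPKM in PBS and GCA (SD, n = 3 each, limma adjusted p = 0.212). Iigp1 averaged 36.4 ± 6.80 and 43.0 ± 5.01 FPKM (SD, n = 3 each, limma adjusted p = 0.278). Igtp averaged 31.2 ± 3.48 and 33.8 ± 5.06 FPKM (SD, n = 3 each, limma adjusted p = 0.562). Igtp overlaps Irgm2 on the same strand, and Irgm2 averaged 35.6 FPKM in PBS and 38.0 in GCA, so the values of these neighbours are uncertain. The groups of Igtp, Irgm1 and Iigp1 overlapped.

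Of the other 5 genes, Ifi27l2a and Xaf1 rose. Ifi27l2a, which encodes a small hydrophobic membrane protein, was at 412, 463 and 508 FPKM in PBS and at 623, 619.5 and 635 FPKM in GCA. PBS replicate 1 was the lowest library of all, and the means of 461 ± 47.8 and 626 ± 8.06 FPKM (SD, n = 3 each) gave a log2 fold change of 0.44 (SE 0.0739, limma adjusted p = 0.00607). Xaf1, which binds and opposes an inhibitor of apoptosis, was at 18.5, 17.4 and 16.5 FPKM in PBS and at 22.9, 19.7 and 21.5 FPKM in GCA. Its groups were apart, with a log2 fold change of 0.28 (SE 0.0663, limma adjusted p = 0.024). Rtp4, a chaperone of membrane receptors, was at 76.5, 70.8 and 72.5 FPKM in PBS and at 90.2, 81.4 and 80.6 FPKM in GCA. Its groups were apart but it lay just outside the threshold (limma adjusted p = 0.0514), and it overlaps Masp1 on the opposite strand, which averaged 18.7 FPKM. Ifi44 averaged 18.3 ± 0.829 and 21.0 ± 1.98 FPKM (SD, n = 3 each, limma adjusted p = 0.11). Ifi35 averaged 18.9 ± 0.911 and 21.5 ± 2.33 FPKM (SD, n = 3 each, limma adjusted p = 0.159).

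Replicate 1 was the highest library of its group in both groups for 36 of the 41 genes, beside 11.9% of all tested genes. The 5 exceptions were Irf7, Bst2, Ifitm3, Trim25 and Ifi27l2a. The summed level of the 41 genes was 3734, 3466 and 3478 FPKM in PBS replicates 1 to 3 and 4620, 4125 and 4228 FPKM in GCA replicates 1 to 3. Replicate 1 was thus the highest of each group in this sum as well, and every GCA library was above every PBS library.

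The difference within PBS was not even over the genes. PBS replicate 1 was at least 1.5-fold above the mean of PBS replicates 2 and 3 in Ifit1, Ifit2, Ifit3, Mx1, Mx2, Rsad2 and Cmpk2, which is 7 of the 41 genes beside 1.30% of tested genes. In Rsad2 this ratio was 2.14, and in GCA the same ratio of replicate 1 to the other libraries was 1.64. In Mx1 the ratios were 1.99 in PBS and 1.44 in GCA. In Irf7 they were 1.02 and 1.00. The ratio in PBS had a median of 1.10 over the 15 genes that rose (0.849 to 1.65) and of 1.25 over the 26 that did not pass (0.991 to 2.14). The test used the same PBS values, and a high PBS replicate 1 makes a call less likely. This split is therefore not independent of the ratio.

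**Figure D3:**
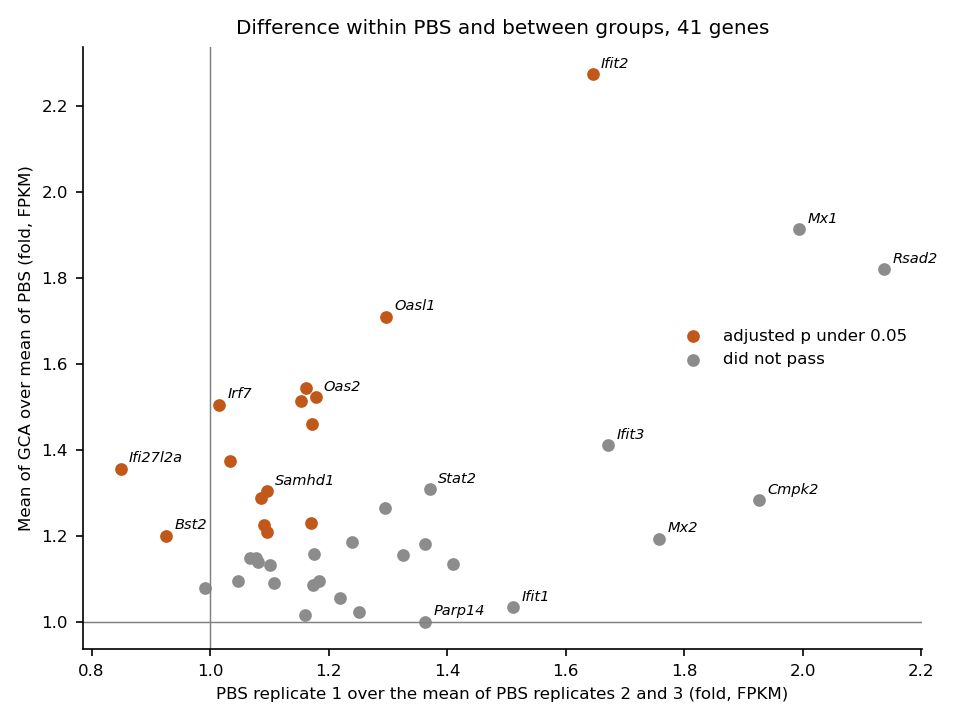
PBS replicate 1 over the mean of PBS replicates 2 and 3 (horizontal axis, fold in FPKM) against the mean of GCA over the mean of PBS (vertical axis, fold in FPKM), 1 point per gene, with called genes in orange and the rest in grey. Mx1 and Rsad2 lie at the right with group differences of 1.91-fold and 1.82-fold, while Irf7 reaches 1.51-fold with a PBS ratio of 1.02 and Oas2 reaches 1.52-fold with a PBS ratio of 1.18.

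All 3 GCA libraries were above all 3 PBS libraries in 19 of the 41 genes, beside 21.6% of tested genes, and all were below in none. In 17 of the 22 genes that overlapped, the overlap came through PBS replicate 1 alone. Against PBS replicates 2 and 3, all 3 GCA libraries were higher in 36 of the 41 genes, beside 26.5% of tested genes. PBS replicate 1 was above all 3 GCA libraries in Eif2ak2, Ifit1, Dtx3l, Parp14 and Trim25.

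With PBS replicate 1 left out, 21 of the 41 genes passed as higher, beside 8.04% of tested genes, and 14 of the first 15 were among them. With replicate 1 of both groups left out, 18 of the 41 passed, beside 4.06% of tested genes. These were 11 of the first 15 with Stat2, Ifit3, Mx1, Rsad2, Cmpk2, Dtx3l and Iigp1. In that fit Mx1 had a log2 fold change of 1.10 (limma adjusted p = 0.0111) and Rsad2 of 1.02 (limma adjusted p = 0.0111). Ifit1 still did not pass, at a log2 fold change of 0.11 (limma adjusted p = 0.284). Oas1a, Oasl2, Bst2 and Xaf1 did not pass in that fit, with limma adjusted p-values of 0.0647, 0.0619, 0.0744 and 0.0817. That fit was chosen after the libraries had been seen.

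Irf7, Dhx58, Zbp1, Oas2, Oas3, Oasl1, Samhd1, Trim30a and Ifi27l2a passed under all 18 alternative settings. Ifit2 lost its call in 9 of them, including the removal of PBS replicate 2 (limma adjusted p = 0.109) or 3 (0.13) and of GCA replicate 1 (0.112), 2 (0.0616) or 3 (0.0652). Oas1a lost its call in 8 of the 18 settings. These included the removal of PBS replicate 2 (limma adjusted p = 0.102), PBS replicate 3 (0.117) or GCA replicate 1 (0.0914), and quantile normalization (0.058). Oasl2 lost its call in 9 of the 18. Among these were the removal of PBS replicate 2 (limma adjusted p = 0.127), PBS replicate 3 (0.13), GCA replicate 1 (0.127) or GCA replicate 3 (0.107), and quantile normalization (0.0606). Ifi47 lost its call in 5, including the removal of PBS replicate 1 (limma adjusted p = 0.0694), 2 (0.0842) or 3 (0.0745), and the filter at 0.1 FPKM (0.0522). Xaf1 lost its call in 6, including the removal of PBS replicate 2 (limma adjusted p = 0.0741), PBS replicate 3 (0.0847), GCA replicate 1 (0.0773) or GCA replicate 3 (0.0658).

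Interferon genes themselves were hardly detected. Of the 20 interferon ligand genes listed, 5 had values and the other 15 were not analysed here. Ifnb1, the first type I interferon that most cells make, had 1, 0 and 1 fragments in PBS and 3, 1 and 2 in GCA. Ifnz had 1, 0 and 0 fragments in PBS and 1, 1 and 2 in GCA. Ifnk had none in PBS and 1, 0 and 1 in GCA. Ifne had 1 fragment in GCA replicate 1 and none elsewhere, and Ifnab had 1 in PBS replicate 2 and none elsewhere. Summed over these 5 genes, the PBS libraries held 4 fragments and the GCA libraries 13. Their summed level was 0.0521 to 0.111 FPKM in PBS and 0.115 to 0.416 FPKM in GCA. PBS replicate 1 and GCA replicate 2 each held only 1 fragment of Ifnb1 and 1 of Ifnz. The levels of these libraries differed through library size alone, so the ranges do not separate the groups. The sum was not tested. All 5 genes lay under the minimum level for the test. With no filter on low levels none of them passed (limma adjusted p = 0.338 to 0.613). Counts this low do not resolve a difference in single ligand genes.

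Of the receptors and their signalling proteins, 3 of 10 tested genes rose and none fell, beside 11.5% and 6.43% of all tested genes. Tyk2, the kinase bound to the type I receptor, averaged 8.74 ± 0.354 and 10.9 ± 0.755 FPKM in PBS and GCA (SD, n = 3 each, log2 fold change 0.29, limma adjusted p = 0.0152). It lost its call without PBS replicate 2 (limma adjusted p = 0.058) or GCA replicate 1 (0.0511). Il10rb, a subunit of the type III interferon and interleukin-10 receptors, averaged 20.3 and 25.3 FPKM (limma adjusted p = 0.017), and lost its call without GCA replicate 1 (0.057) or GCA replicate 3 (0.0556). Ifngr1, a subunit of the interferon gamma receptor, averaged 58.6 and 65.9 FPKM (limma adjusted p = 0.0487), and lost its call whichever library was left out (0.0623 to 0.138). Tyk2, Il10rb and Ifngr1 also lost their calls with replicate 1 of both groups left out (limma adjusted p = 0.0926, 0.117 and 0.133). The subunits of the type I receptor did not pass: Ifnar1 averaged 26.4 and 28.0 FPKM (limma adjusted p = 0.305) and Ifnar2 20.6 and 21.7 FPKM (limma adjusted p = 0.353).

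Among the other nucleic acid sensors, adaptors and kinases, 7 of 22 tested genes rose and none fell, beside the same 11.5% and 6.43%. Ifi204, which encodes a DNA sensor, averaged 82.5 ± 3.37 and 129 ± 5.69 FPKM in PBS and GCA (SD, n = 3 each, log2 fold change 0.64, limma adjusted p = 0.000396). Tlr9, the endosomal DNA receptor, averaged 3.94 ± 0.375 and 8.74 ± 0.831 FPKM (SD, n = 3 each, log2 fold change 0.98, limma adjusted p = 0.000396). Cgas, the cytosolic DNA sensor, rose by a log2 fold change of 0.35 (limma adjusted p = 0.00997) and Unc93b1, the chaperone of the endosomal receptors, by 0.31 (limma adjusted p = 0.00998). Both lost their calls with replicate 1 of both groups left out, at limma adjusted p-values of 0.0687 and 0.0689. Mavs, the adaptor of RIG-I and MDA5, and Tlr7, the endosomal RNA receptor, passed at limma adjusted p-values of 0.041 and 0.0451. Mavs lost its call in 5 of the 6 fits without 1 library (0.0557 to 0.134), passing only without GCA replicate 3, and Tlr7 in 5 (0.0612 to 0.115), passing only without PBS replicate 3.

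Of 5 other IRF family genes tested, Irf8 rose, from 17.1 to 20.4 FPKM (limma adjusted p = 0.0102), and lost its call with replicate 1 of both groups left out (0.089). Of 12 inhibitors of the pathway tested, Ptpn1, a phosphatase of JAK kinases, rose from 32.4 to 42.5 FPKM (limma adjusted p = 0.00435) and Pias2, a SUMO ligase, fell from 8.96 to 7.51 FPKM (limma adjusted p = 0.0285). Pias2 lost its call in 5 of the 6 fits without 1 library (0.0529 to 0.093), passing only without GCA replicate 3.

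Of 72 other interferon-induced genes tested, 33 rose, 2 fell and 37 were not called, beside 11.5% higher and 6.43% lower over all tested genes. Their median log2 fold change was 0.26. Slfn1, a Schlafen gene of lymphoid and myeloid cells, averaged 14.4 FPKM in PBS and 29.8 in GCA (limma adjusted p = 0.000448). Phf11b rose from 28.9 to 53.8 FPKM, Phf11a from 6.22 to 11.4, Ifi30, a lysosomal thiol reductase, from 79.4 to 136, and Apobec3, a cytidine deaminase that restricts retroviruses, from 13.1 to 19.0. Plac8 fell from 115 to 71.4 FPKM (limma adjusted p = 0.0612 with replicate 1 of both groups left out) and Fas, a death receptor, from 31.3 to 25.7. Cxcl10, a chemokine that responds strongly to interferon, was at 21.1, 10.9 and 9.12 FPKM in PBS and at 23.0, 9.52 and 9.74 FPKM in GCA, with limma adjusted p = 0.995. Its replicate 1 was the highest of both groups, as in 46 of the 72 genes of this list.

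**Figure D4:**
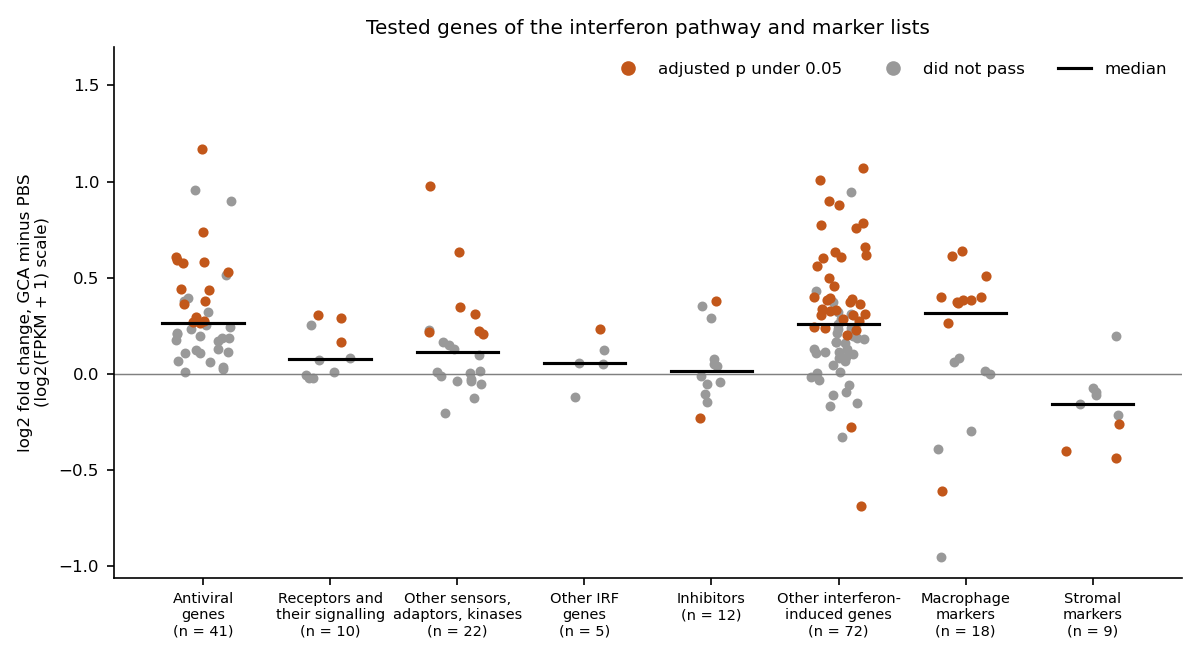
The log2 fold change of GCA minus PBS on the log2(FPKM + 1) scale (vertical axis) for the tested genes of each list (horizontal axis), with genes past the threshold in orange, the rest in grey and the median as a black line. The medians of the 41 antiviral genes and of the 72 other interferon-induced genes are both 0.26, and that of the macrophage markers is 0.32.

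Macrophage markers moved between the groups too. Of 18 markers tested 10 rose, 1 fell and 7 were not called, beside the same shares of 11.5% and 6.43%. Their median log2 fold change was 0.32. Cd68 averaged 614 FPKM in PBS and 944 in GCA, and Lyz2, which fell, 13518 and 8879. Lyz2 did not pass after quantile normalization (log2 fold change −0.11, limma adjusted p = 0.438). That setting gives genes of the same rank the same value in every library. It can therefore remove a difference in a very abundant gene, and its result does not decide whether Lyz2 fell. C1qb, a complement gene, lost its call under the same setting (limma adjusted p = 0.368). Fcer1g lost its call whichever library was left out (limma adjusted p = 0.0523 to 0.0991), and Aif1 without PBS replicate 1 (limma adjusted p = 0.055). With replicate 1 of both groups left out, C1qa, C1qb, C1qc, Fcgr1, Aif1 and Fcer1g did not pass (limma adjusted p = 0.0567 to 0.109). Laptm5, Cd68, Mrc1 and Ms4a7, the markers with the smallest p among those that rose, kept their calls under all 18 alternative settings. The sum of this list was lower in every GCA library than in every PBS library, with Lyz2 as its most abundant gene. Of 9 stromal markers tested none rose and 3 fell (Fn1, Pdgfrb and Col1a2). Col1a2 lost its call without PBS replicate 2 (limma adjusted p = 0.0605) or GCA replicate 1 (0.0905), 2 (0.0529) or 3 (0.0647). Replicate 1 was the highest of both groups in 0 of the 18 macrophage markers and in 1 of the 9 stromal markers, beside 36 of the 41 antiviral genes. Plasmacytoid dendritic cells, which make large amounts of type I interferon, had their marker Siglech at 0 FPKM in all PBS libraries and at most 0.033 FPKM in GCA. Of their 10 markers 3 were tested, none rose and Cox6a2 fell (limma adjusted p = 0.0521 without PBS replicate 2 and 0.0585 without PBS replicate 3), and the list summed to 19.1 to 21.0 FPKM in PBS and 16.9 to 19.7 in GCA. Most of this sum came from the 3 tested markers, Tcf4, Lair1 and Cox6a2, since the others each averaged under 1 FPKM. Conventional dendritic cell markers summed to 0.43 to 0.455 FPKM in PBS and 0.633 to 0.721 in GCA, and T and NK cell markers to 0.192 to 0.612 and 0.156 to 0.325. B cell markers summed to 0.234 to 0.547 FPKM in PBS and 0.384 to 1.17 in GCA. No conventional dendritic, T and NK or B cell marker reached the minimum level for the test, so differences in these sums were not tested. Neutrophil markers summed to 3.04 to 5.31 FPKM in PBS and 2.45 to 5.02 in GCA, and endothelial markers to 2.58 to 2.76 and 2.37 to 3.08. The part of these cell types in the differences of the antiviral genes was not tested.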

How the data were processed

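Transcript levels of mouse bone marrow stromal cells were compared between 3 GCA and 3 PBS libraries, grouped by the labels. Values were deposited per Ensembl gene without a named unit. They were identified as FPKM deposited by the authors from the values: multiplied by the exon length in GENCODE M21, 91.0% were whole fragments within 0.02 fragment. Per the submitters' processing notes, the tool was Bowtie 0.12.2, with mm8 and mm9 listed as builds. Per the labels' protocols, reads were 150 bp paired-end. The counter, its strand setting, how it treated overlapping or similar genes, and the build behind the values are not stated in the labels or headers used here. Gene coordinates come from GENCODE M21 (GRCm38) by identifier (27204 of 27263 genes matched).

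Differences were tested with limma 3.58.1 in R 4.3.3, with trend and robust moderation, on log2(FPKM + 1). Genes averaging 1 FPKM or more were tested, two-sided, with Benjamini-Hochberg adjustment over 11984 genes and a threshold of 0.05. The step was tested on simulated data. All 41 members are named, by role. Full statistics go to those past the threshold and to the 3 others with the largest difference (Mx1, Rsad2 and Ifit3). Of each related list, up to 6 called genes are named by smallest p, and results for some of them are left out. Further genes, such as Cxcl10 and Cd68, were chosen after their values were seen. The members and lists were chosen with earlier results of these data known. Cgas and Ifi211 were matched through older symbols. Alternatives were quantile normalization, a block for the replicate number, median centring, other filters and pseudocounts, limma without trend and robust moderation, and leaving out each library. Chosen after the data had been seen were a limma-voom fit of recovered fragments, replicate 1 of both groups left out, and the block with quantile normalization. Figures were drawn with matplotlib 3.10.9.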

Additional observations from a re-analysis of the deposited data

How the results depend on the processing

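Over all tested genes, 2151 were called, 1075 with no filter on low levels, 658 with replicate 1 of both groups left out and 1232 to 2088 with 1 library left out. The number of antiviral genes called higher was 15, and 10 to 21 with 1 library left out. Their median log2 fold change was 0.26, and 0.18 to 0.35 with 1 library left out. With the replicate number as a block, 25 of the 41 genes passed, the same 15 among them, beside 11.1% of tested genes. The 10 that the block added were Stat2, Usp18, Ifih1, Ddx58, Ifit3, Mx1, Rsad2, Cmpk2, Iigp1 and Rtp4, for example Rsad2 (limma adjusted p = 0.00439) and Ifit3 (0.00751). The numbers were not taken to pair the libraries: over all tested genes, deviations of same-numbered libraries correlated at 0.082, 0.0287 and 0.0676, although every library correlated best with its own number. Over the 41 genes these correlations were 0.802, 0.438 and 0.602, and those between replicates 2 and 3 across groups were 0.551 and 0.61, so replicates 2 and 3 were not told apart there. The signs of 6 genes that did not pass turned. Eif2ak2 had a log2 fold change of −0.015 after quantile normalization, also with the block, and −0.026 to 0.095 with 1 library left out. Parp14 had −0.029 after quantile normalization, also with the block, −0.0016 after median centring and −0.088 to 0.16 with 1 library left out. Trim25 had −0.00067 after quantile normalization, also with the block, and −0.037 to 0.14 with 1 library left out. With 1 library left out, Ifit1 had −0.089 to 0.26, Igtp −0.00088 to 0.20 and Irf1 −0.071 to 0.16. The causes were not tested. Of the gene values under alternatives, 644 kept their direction and side of the threshold, 38 lost and 37 gained a call, and 19 turned sign. With 3 libraries per group, a difference inside the spread of replicate 1, as in Ifit1, could not be resolved. Ifit1 passed under none of the 18 alternative settings, the block among them, and Rsad2 passed in some settings only. Ligand genes had 0 to 3 fragments per library, too few to resolve single genes.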
